A study of Mus musculus with 11 samples.

Results

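The insulin signalling and FOXO genes described here are 10 genes that carry a message from the insulin receptor to the FOXO transcription factors. They are the receptor gene Insr, the docking protein genes Irs1 and Irs2, the phosphoinositide 3-kinase genes Pik3r1 and Pik3ca, the kinase genes Akt1 and Akt2, the transcription factor genes Foxo1 and Foxo3, and Igfbp1, a gene that FOXO factors switch on. They were taken by symbol from the deposited table of liver expression, and all 10 were found among its 13636 genes. The study sequenced liver RNA of male mice of the inbred strain C57BL/6J in 11 libraries. Of these, 4 were from mice injected with a mimic of the microRNA miR-30c, 3 from mice injected with a scramble oligomer, an oligomer without the miR-30c sequence, and 4 from mice injected with PBS, the vehicle. All groups had been put on Western diet at 8 weeks of age and kept on it for a month before the injections, which went on for 6 weeks; the oligomer doses went up from 2.5 through 5.0 to 7.5 mg/kg. Nothing in the labels ties each library to its own mouse, so the p-values measure how far these libraries spread, which may be technical.

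Insulin binds its receptor, a tyrosine kinase, and the receptor phosphorylates the docking proteins IRS1 and IRS2. These recruit phosphoinositide 3-kinase, whose lipid product brings AKT kinases to the membrane, where they are activated. AKT then phosphorylates FOXO factors, which leave the nucleus, so that in hepatocytes insulin lowers transcription of FOXO targets such as Igfbp1 and Irs2, while fasting raises it. Transcript levels report neither phosphorylation nor the place of these proteins in the cell.

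The values are scaled CPM (read counts divided by a scaled library size) as deposited. The reads that the values imply ranged from 39705157 to 60399018 in mimic libraries, from 74519792 to 88869950 in scramble libraries and from 62848115 to 101380174 in PBS libraries. No member rested on fewer than 607 implied reads in a library (Irs1), and the highest count was 21708 (Igfbp1). For genes that varied little between libraries, such as Akt1 and Akt2, counting error is not small beside that spread. The lowest sums of deposited values, 635097 and 605536, were those of mimic replicates 1 and 4. Differences are given as log2 changes of value + 1 with standard errors (SE), and a gene was called at an adjusted p under 0.05 (limma, Benjamini-Hochberg over all 13636 genes).

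The mature miR-30c sequence and those of its relatives miR-30a and miR-30e are shown because the mimic carries the miR-30c sequence and a microRNA pairs with messages mainly through its seed. They are from RefSeq (GRCm38.p6), with the seed (bases 2 to 8) in capitals, and share 1 seed.
miR-30c-5p: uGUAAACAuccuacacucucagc
miR-30a-5p: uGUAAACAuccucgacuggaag
miR-30e-5p: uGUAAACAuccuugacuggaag
The miR-30c gene Mir30c-2 yields this arm at chr1:23291714-23291736 on the plus strand and Mir30c-1 at chr4:120769584-120769606 on the minus strand. A 7-base match to the seed (TGTTTAC in the message) was found in the annotated 3′ UTR of 1 of the 10 members, Irs1, against 1889 of 11461 genes searched (16.5%). The 3′ UTRs of the members had a median of 4403 bases, against 1348 bases over all genes searched. The site begins at base 156 of the 4525-base Irs1 3′ UTR and lies in chr1:82237452-82237481 (GRCm38, minus strand), with the match in capitals.
Irs1 site: cgttacagtttTGTTTACcttgtacaatcc
No match in the other members says only that these letters were not in the windows searched.

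Promoters of Igfbp1, Irs2 and Irs1 are shown because these 3 of the 9 members with a RefSeq promoter held the letters CAAAACA (reverse complement TGTTTTG), the core of the insulin response element through which FOXO factors act on IGFBP1 in human cells. Each run covers 250 bases before to 50 after the start, in the direction of transcription, on GRCm38.p6. The motif is in capitals, searched on both strands; it does not overlap the second motif searched, GTAAACA. The Igfbp1 promoter lies at chr11:7197537-7197836 (plus strand), and its match starts 108 bases before the start site.
Igfbp1 promoter: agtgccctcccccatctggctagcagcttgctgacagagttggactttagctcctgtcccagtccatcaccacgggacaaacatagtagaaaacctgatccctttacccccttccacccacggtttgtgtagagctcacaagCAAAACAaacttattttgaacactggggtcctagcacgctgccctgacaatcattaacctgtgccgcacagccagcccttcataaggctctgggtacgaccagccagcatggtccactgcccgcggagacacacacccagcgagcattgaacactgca
The Irs2 promoter lies at chr8:11008880-11009179 (minus strand), with a match in the reverse direction 37 bases before the RefSeq start. The GENCODE gene starts at chr8:11008458, outside this window, so that distance holds for the RefSeq start alone.
Irs2 promoter: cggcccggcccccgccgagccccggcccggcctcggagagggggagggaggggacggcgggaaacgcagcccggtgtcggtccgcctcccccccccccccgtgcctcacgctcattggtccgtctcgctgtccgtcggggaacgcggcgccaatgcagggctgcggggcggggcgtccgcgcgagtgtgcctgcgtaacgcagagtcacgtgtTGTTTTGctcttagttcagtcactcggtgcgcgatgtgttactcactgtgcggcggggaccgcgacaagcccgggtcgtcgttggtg
The Irs1 promoter lies at chr1:82291390-82291689 (minus strand), with reverse matches 111 and 32 bases before the start.
Irs1 promoter: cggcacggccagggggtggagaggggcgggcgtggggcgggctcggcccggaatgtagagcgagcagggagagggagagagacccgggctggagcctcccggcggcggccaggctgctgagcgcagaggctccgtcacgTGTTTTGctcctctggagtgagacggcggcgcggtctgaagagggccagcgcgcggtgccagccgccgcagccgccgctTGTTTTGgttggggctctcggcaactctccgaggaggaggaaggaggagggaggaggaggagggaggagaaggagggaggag
Of all 32851 mouse promoters of this length, 2064 (6.28%) held CAAAACA in either direction. The forkhead consensus GTAAACA, the letters of the miR-30 seed written as DNA, was held by 1199 promoters (3.65%), and among the members by Akt1 alone, 161 bases before its start in the reverse direction. A match is a description of the sequence and not evidence of binding.

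In mimic against scramble livers 5 of the 10 members were called, all lower: Irs1, Irs2, Pik3ca, Foxo1 and Foxo3. Over all genes 32.0% were called in this comparison and 14.7% were called lower. In mimic against PBS livers 7 of 10 were called, the same 5 with Pik3r1 and Igfbp1, again all lower, where 37.1% of all genes were called and 17.1% were called lower. In scramble against PBS livers 0 members were called, as were 0 of all genes (0%) by limma; at an unadjusted p under 0.05 there were 0 members and 434 genes. The median log2 change of the members was -0.61 for mimic against scramble, -0.57 for mimic against PBS and 0.06 for scramble against PBS, with a median of 0.00 over all genes in each. Insr, Akt1 and Akt2 were called in neither mimic comparison. The mimic comparisons share the mimic libraries, so their values are not independent. Where the groups of a member are said below not to overlap, the share of all genes that separated likewise was not counted.

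**Figure D1:**
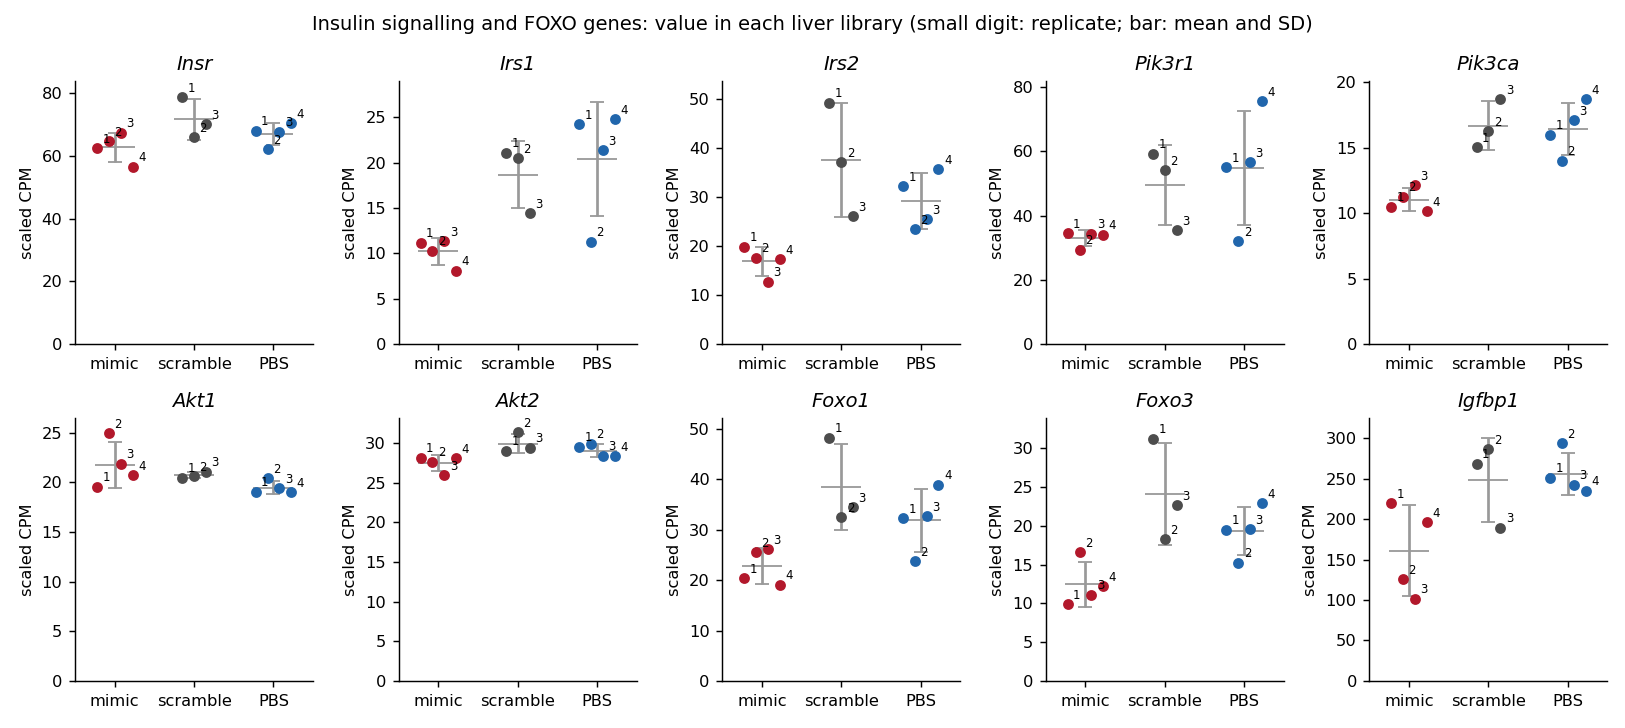
Value of each of the 10 genes in every library (scaled CPM, linear axis from 0 in each panel), with mimic, scramble and PBS libraries as separate columns of numbered points and bars for the mean and SD. The mimic points of Irs2, Pik3ca and, by small steps, Akt2 lie below every scramble and PBS point of the same gene. Mimic replicates 2 and 3 of Akt1 lie above every scramble and PBS point.

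These calls depend on how libraries are scaled. When the libraries were divided by their totals instead, the median of all genes moved to 0.50 in mimic against scramble and 0.51 in mimic against PBS, and of the members only Akt1 was called, higher, in each comparison (0.63, adjusted p = 0.0385, and 0.73, adjusted p = 0.00859, limma). With that scaling the log2 changes minus the median of all genes were -1.01 for Irs2, -0.83 for Foxo3, -0.75 for Irs1, -0.65 for Foxo1, -0.58 for Igfbp1, -0.50 for Pik3ca and -0.46 for Pik3r1 in mimic against scramble. Insr at -0.10, Akt2 at -0.04 and Akt1 at 0.13 lay nearest to that median. Dividing by totals shifts all genes of a library alike, so apart from the pseudocount these differences from the median are fixed by its construction and are no separate support.

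Insr encodes the insulin receptor and lies at chr8:3122061-3279617 (minus strand, GRCm38, as are the gene positions that follow). Its value was 62.4, 64.6, 67.4 and 56.6 scaled CPM in mimic replicates 1 to 4, 78.7, 66.0 and 70.1 in scramble replicates 1 to 3, and 68.0, 62.2, 67.6 and 70.4 in PBS replicates 1 to 4. The 3 groups overlapped, with the lowest value in mimic replicate 4 and the highest in scramble replicate 1. The log2 change was -0.19 ± 0.09 (SE, adjusted p = 0.114, limma) in mimic against scramble and -0.10 ± 0.08 (adjusted p = 0.363) in mimic against PBS, with 95% intervals of -0.37 to 0.00 and -0.27 to 0.08. Of 23 alternative fits, 1 called Insr lower against scramble, that with library weights (-0.23, adjusted p = 0.0406, limma).

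Irs1 (chr1:82233101-82291416, minus strand) and Irs2 (chr8:10984681-11008458, minus strand) encode the main docking proteins of the hepatocyte receptor. Irs1 had 11.2, 10.3, 11.4 and 8.09 scaled CPM in mimic libraries, 21.1, 20.5 and 14.4 in scramble libraries, and 24.2, 11.3, 21.4 and 24.8 in PBS libraries. Every mimic value lay below every scramble value; among PBS libraries replicate 2 lay within the mimic range and the other 3 lay well above it. Irs1 fell by 0.80 ± 0.24 against scramble (SE, adjusted p = 0.0237, limma) and by 0.88 ± 0.22 against PBS (adjusted p = 0.00941), to 54.8% and 50.1% of the mean of those groups. The call against scramble was lost without mimic replicate 4 (adjusted p = 0.0629), scramble replicate 1 (0.0911) or scramble replicate 2 (0.0759), and without mimic replicates 1 and 4 together Irs1 was called in neither comparison (0.114 against scramble and 0.0644 against PBS).

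Irs2, which FOXO factors induce in fasting liver, had the largest fall of the members against scramble. Its values were 19.9, 17.7, 12.7 and 17.4 scaled CPM in mimic libraries, 49.4, 37.2 and 26.1 in scramble libraries, and 32.2, 23.5, 25.5 and 35.8 in PBS libraries. All mimic values lay below all others, and scramble replicate 1 stood highest. Irs2 fell by 1.08 ± 0.21 against scramble (SE, adjusted p = 0.00325, limma), to 45.1% of the scramble mean, and by 0.75 ± 0.20 against PBS (adjusted p = 0.0120), to 57.9% of the PBS mean. The call held in each fit that left out a library. An exon of the noncoding gene 9530052E02Rik overlaps Irs2 on the opposite strand. It averaged 1.76 ± 0.667 scaled CPM in mimic (SD, n = 4), 4.63 ± 1.08 in scramble (n = 3) and 3.22 ± 0.704 in PBS libraries (n = 4), with a log2 change of -1.04 ± 0.21 against scramble. The library kit was stranded but whether the counting used strand is not given in the sources used here, so reads of this pair cannot be told apart. Irs1 and Foxo1 are likewise overlapped on the opposite strand by Gm9747 and Gm20402, which were not analysed here.

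Pik3r1 (chr13:101680563-101768217, minus strand) encodes the regulatory subunits of phosphoinositide 3-kinase that bind IRS proteins, and Pik3ca (chr3:32397671-32468486, plus strand) the catalytic subunit p110 alpha. Pik3r1 had 34.5, 29.4, 34.4 and 34.0 scaled CPM in mimic libraries, 59.2, 54.0 and 35.5 in scramble libraries, and 55.0, 32.1, 56.6 and 75.6 in PBS libraries. Mimic libraries lay just below scramble replicate 3 and PBS replicate 2 lay among them, so mimic values overlapped with PBS values and not with scramble values. The log2 change was -0.54 ± 0.24 against scramble (SE, adjusted p = 0.106, limma), which was not called, and Pik3r1 fell by 0.65 ± 0.22 against PBS (adjusted p = 0.0385). The call against PBS was lost without any of the 4 mimic libraries or without PBS replicate 1, 3 or 4 (adjusted p from 0.0596 to 0.11, limma). Against scramble Pik3r1 was called without PBS replicate 2 (adjusted p = 0.0281), which the shared estimate of spread uses.

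Pik3ca had 10.5, 11.3, 12.1 and 10.2 scaled CPM in mimic libraries, 15.0, 16.3 and 18.7 in scramble libraries, and 16.0, 14.0, 17.1 and 18.7 in PBS libraries. The mimic range lay wholly below both others, which covered much the same values. Pik3ca fell by 0.55 ± 0.10 against scramble (SE, adjusted p = 0.00263, limma) and by 0.53 ± 0.10 against PBS (adjusted p = 0.00181), the smallest adjusted p of the members in each comparison. In percent of the mean, mimic livers kept 66.1% of the scramble level and 67.0% of the PBS level. The call held in each fit that left out a library.

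Akt1 (chr12:112653821-112674884, minus strand) and Akt2 (chr7:27591552-27640826, plus strand) encode the AKT kinases of liver, of which AKT2 is the form tied to insulin's control of glucose and lipid. Akt1 had 19.6, 24.9, 21.9 and 20.7 scaled CPM in mimic libraries, 20.5, 20.6 and 21.1 in scramble libraries, and 19.0, 20.4, 19.4 and 19.0 in PBS libraries. Mimic replicate 2 was the highest, the mimic range held all scramble values, and the scramble values lay just above all PBS values. The log2 change was 0.06 ± 0.08 against scramble (SE, adjusted p = 0.565, limma) and 0.15 ± 0.07 against PBS (adjusted p = 0.128). Without mimic replicates 1 and 4 Akt1 was called higher against PBS (0.25, adjusted p = 0.0433).

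Akt2 had 28.2, 27.7, 26.0 and 28.1 scaled CPM in mimic libraries, 29.1, 31.4 and 29.4 in scramble libraries, and 29.6, 29.9, 28.4 and 28.4 in PBS libraries. All mimic values lay below all others, by small steps. The log2 change was -0.12 ± 0.06 against scramble (SE, adjusted p = 0.160, limma; 95% interval -0.26 to 0.02) and -0.08 ± 0.06 against PBS (adjusted p = 0.303; 95% interval -0.20 to 0.05), so neither was called. In mimic livers Akt2 kept 91.8% of the scramble mean and 94.5% of the PBS mean.

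Foxo1 (chr3:52268336-52353221, plus strand) and Foxo3 (chr10:42181841-42276755, minus strand) encode the transcription factors at the end of the pathway, which share a forkhead domain and a set of targets. Foxo1 had 20.4, 25.5, 26.2 and 19.1 scaled CPM in mimic libraries, 48.3, 32.5 and 34.5 in scramble libraries, and 32.3, 23.7, 32.7 and 39.0 in PBS libraries. Mimic values lay below all scramble values, and mimic replicates 2 and 3 exceeded PBS replicate 2. Foxo1 fell by 0.72 ± 0.18 against scramble (SE, adjusted p = 0.0108, limma) and by 0.46 ± 0.16 against PBS (adjusted p = 0.0466). Against scramble the call was lost without scramble replicate 1 (adjusted p = 0.0534, limma) or without mimic replicates 1 and 4 (0.0961). Without that pair of libraries the log2 change against PBS was -0.27 (adjusted p = 0.334, limma). The call against PBS was lost without mimic replicate 1 or 4, scramble replicate 3 or PBS replicate 1, 3 or 4 (adjusted p from 0.0553 to 0.132). Quantile normalization also lost it (-0.40, adjusted p = 0.0651, limma), and it held in 12 of 23 alternative fits.

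Foxo3 had 9.87, 16.6, 11.1 and 12.2 scaled CPM in mimic libraries, 31.2, 18.3 and 22.7 in scramble libraries, and 19.5, 15.2, 19.6 and 22.9 in PBS libraries. Mimic replicate 2 was the highest of its group and exceeded PBS replicate 2, while all mimic values lay below all scramble values. Foxo3 fell by 0.89 ± 0.20 against scramble (SE, adjusted p = 0.00585, limma), to 51.7% of the scramble mean, and by 0.61 ± 0.18 against PBS (adjusted p = 0.0221), to 64.4% of the PBS mean. The call against scramble held in 22 of 23 alternative fits, all but that with library totals. Against PBS it was lost without mimic replicate 1 or 3 or PBS replicate 3 or 4 (adjusted p from 0.0501 to 0.0662, limma).

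Igfbp1 (chr11:7197782-7202546, plus strand) encodes a secreted protein that binds insulin-like growth factors, and its transcript is a classic readout of FOXO activity in liver. Its values were 219, 125, 102 and 196 scaled CPM in mimic libraries, 269, 287 and 189 in scramble libraries, and 251, 294, 243 and 235 in PBS libraries. All mimic values lay below all PBS values; mimic replicates 2 and 3 were the lowest of all, while replicates 1 and 4 exceeded scramble replicate 3. Igfbp1 fell by 0.73 ± 0.22 against PBS (SE, adjusted p = 0.0250, limma), to 62.8% of the PBS mean; this call was lost without mimic replicate 2 or 3 or PBS replicate 2 (adjusted p from 0.0503 to 0.0630). Against scramble the log2 change was -0.67 ± 0.24 (adjusted p = 0.0532, limma), which was not called. It was called without mimic replicate 1 (adjusted p = 0.0205), mimic replicate 4 (0.0428) or scramble replicate 3 (0.0403), and was -1.11 (adjusted p = 0.00304) without mimic replicates 1 and 4.

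**Figure D2:**
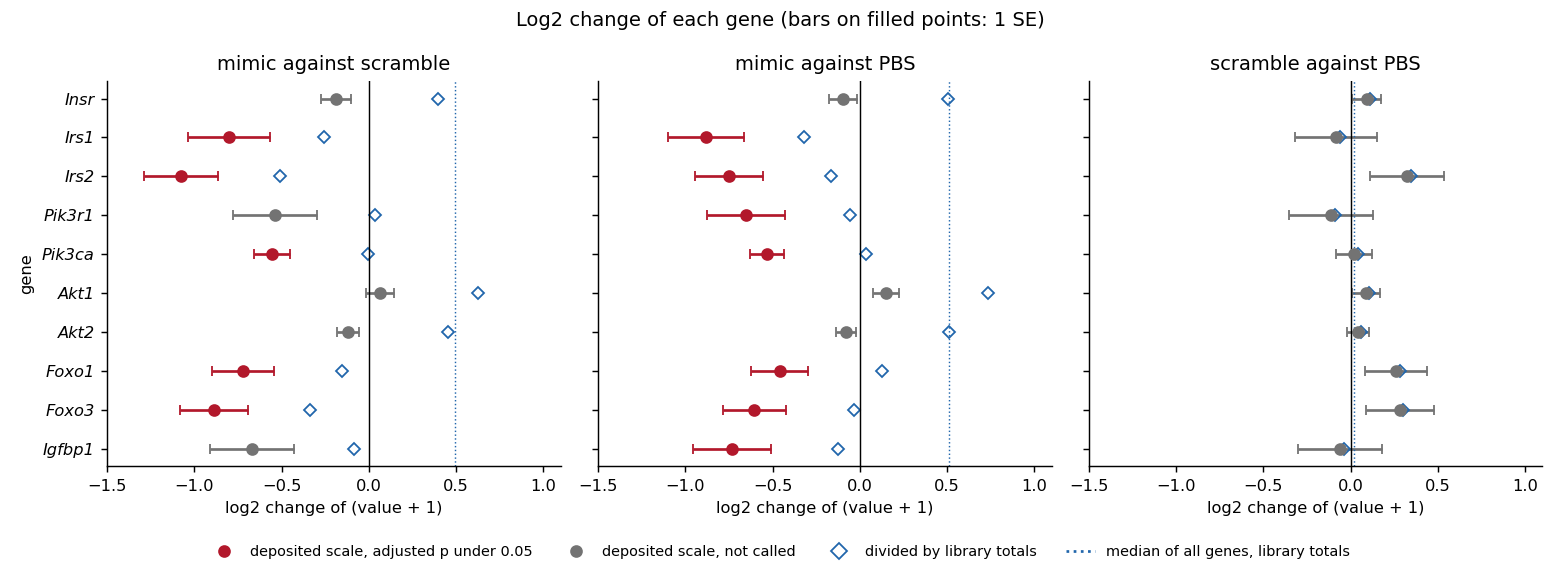
Log2 change of value + 1 for each of the 10 genes in the 3 comparisons, as filled points with bars of 1 SE (red where called), and as open diamonds after division by library totals, with the median of all genes under that scaling as a dotted line. Red points of Irs1, Irs2, Pik3ca, Foxo1 and Foxo3 lie below 0 in both mimic comparisons, the diamonds lie to their right, and no point is red in scramble against PBS.

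Scramble against PBS livers differed little at these genes. The log2 change was largest for Irs2, at 0.32 ± 0.21, then Foxo3 at 0.28 ± 0.20 and Foxo1 at 0.26 ± 0.18 (SE, adjusted p = 0.9997 for each, limma). The 95% intervals ran from -0.14 to 0.79 for Irs2, from -0.14 to 0.71 for Foxo3 and from -0.13 to 0.65 for Foxo1, so moderate differences were not detectable with 3 and 4 libraries. The other 7 members had log2 changes between -0.11 and 0.09. Among the members the 2 groups did not overlap for Akt1 alone, by a small gap (PBS up to 20.40 and scramble from 20.48 scaled CPM). With so few libraries such a gap can arise by chance, and its share over all genes was not counted.

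Pairs of related members were set against each other within libraries, since such a ratio does not depend on library scaling. None of 15 ratio comparisons passed (two-sided exact permutation tests over libraries, smallest adjusted p = 0.429). This does not show that the ratios were alike. No single ratio could pass alone after adjustment over 15, because with these group sizes the smallest p that the exact test allows is 0.0286. That value was reached once, for Akt2 over Akt1 in mimic against PBS, with ratios of 1.11 to 1.44 in mimic libraries and 1.47 to 1.55 in PBS libraries and a difference of -0.24 in the mean log2 ratio. The scramble ratios of that pair were 1.40 to 1.52. Every ratio of this pair lay above 1, on values not divided by length. Irs2 over Irs1 ran from 1.12 to 2.15 in mimic, 1.81 to 2.34 in scramble and 1.20 to 2.08 in PBS libraries. Igfbp1 over Insr ran from 1.51 to 3.52 in mimic, 2.70 to 4.34 in scramble and 3.34 to 4.73 in PBS libraries, with an unadjusted exact p of 0.114 for mimic against PBS. For Foxo3 over Foxo1 the ratio lay between 0.424 and 0.649 in mimic, 0.562 and 0.657 in scramble and 0.588 and 0.643 in PBS libraries, and for Pik3ca over Pik3r1 between 0.298 and 0.384 in mimic, 0.254 and 0.527 in scramble and 0.247 and 0.436 in PBS libraries.

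**Figure D3:**
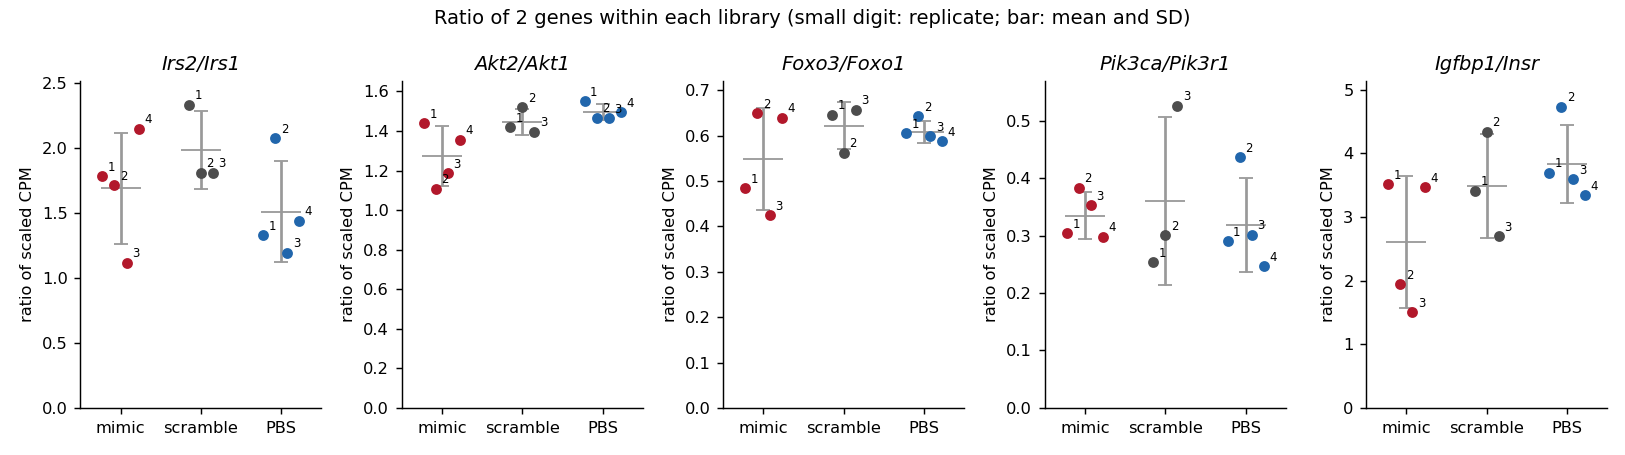
Ratio of values within each library for 5 pairs of related members, with 1 numbered point a library on a linear axis from 0, bars for the mean and SD, and mimic, scramble and PBS libraries as separate columns. The Akt2 over Akt1 points of mimic libraries (1.11 to 1.44) lie below those of PBS libraries (1.47 to 1.55).

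Levels were compared between members as scaled CPM per kilobase of annotated exon. Igfbp1, a liver-secreted protein gene, stood far above the rest, at 105 ± 36.8 in mimic (SD, n = 4), 163 ± 33.9 in scramble (n = 3) and 168 ± 17.2 in PBS livers (n = 4). In PBS livers the order below it was Pik3r1 at 5.44 ± 1.77, Insr at 4.88 ± 0.254, Akt1 at 4.75 ± 0.159, Irs2 at 4.63 ± 0.907, Akt2 at 4.08 ± 0.11, Foxo1 at 3.68 ± 0.723, Foxo3 at 2.55 ± 0.414, Irs1 at 2.23 ± 0.685 and Pik3ca at 1.81 ± 0.217 (SD, n = 4). Neighbours in this order differed by less than their spread, except Igfbp1 from Pik3r1 and Foxo1 from Foxo3. In mimic livers Akt1 at 5.32 ± 0.563 and Insr at 4.56 ± 0.334 stood next to Igfbp1, and Pik3r1 at 3.28 ± 0.246 and Irs2 at 2.68 ± 0.478 came below Akt2 at 3.86 ± 0.145 (SD, n = 4). Irs1 was the lowest member in mimic livers, at 1.12 ± 0.164, and Pik3ca in scramble and PBS livers. Between libraries of a group the members varied unequally. In PBS livers the coefficient of variation was 32.5% for Pik3r1 and 30.7% for Irs1, against 2.71% for Akt2 and 3.36% for Akt1. In mimic livers it was 35.0% for Igfbp1 and 3.76% for Akt2.

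The genes whose pattern over the 11 libraries was most like that of Irs2 among 8238 genes averaging 5 or more were Ppap2b, Gatad1, Scd3, Atp9b and Cnot4, with Pearson r of log2 values between 0.945 and 0.957. Those most like Igfbp1 were Hsd17b12, 1500017E21Rik, 4930581F22Rik, Hectd2 and Cecr5, with r between 0.920 and 0.939. These r describe libraries of 3 groups pooled and share the differences between groups.

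Other genes of the pathway were described from 9 lists, of which 146 of 160 genes were in the table. In mimic against scramble livers 12 of them (8.22%) were called higher and 37 (25.3%) lower, with a median log2 change of -0.12, where 17.3% of all genes were called higher and 14.7% lower, with a median of 0.00. In mimic against PBS livers 12 (8.22%) were called higher and 43 (29.5%) lower, with a median of -0.12, against 20.0% and 17.1% of all genes. In scramble against PBS livers 0 were called. With libraries divided by their totals every list's median was above 0 in both mimic comparisons, so directions below hold for the deposited scaling, relative to the bulk of the genes. The p-values below are limma's adjusted p for mimic against scramble unless another comparison is named.

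**Figure D4:**
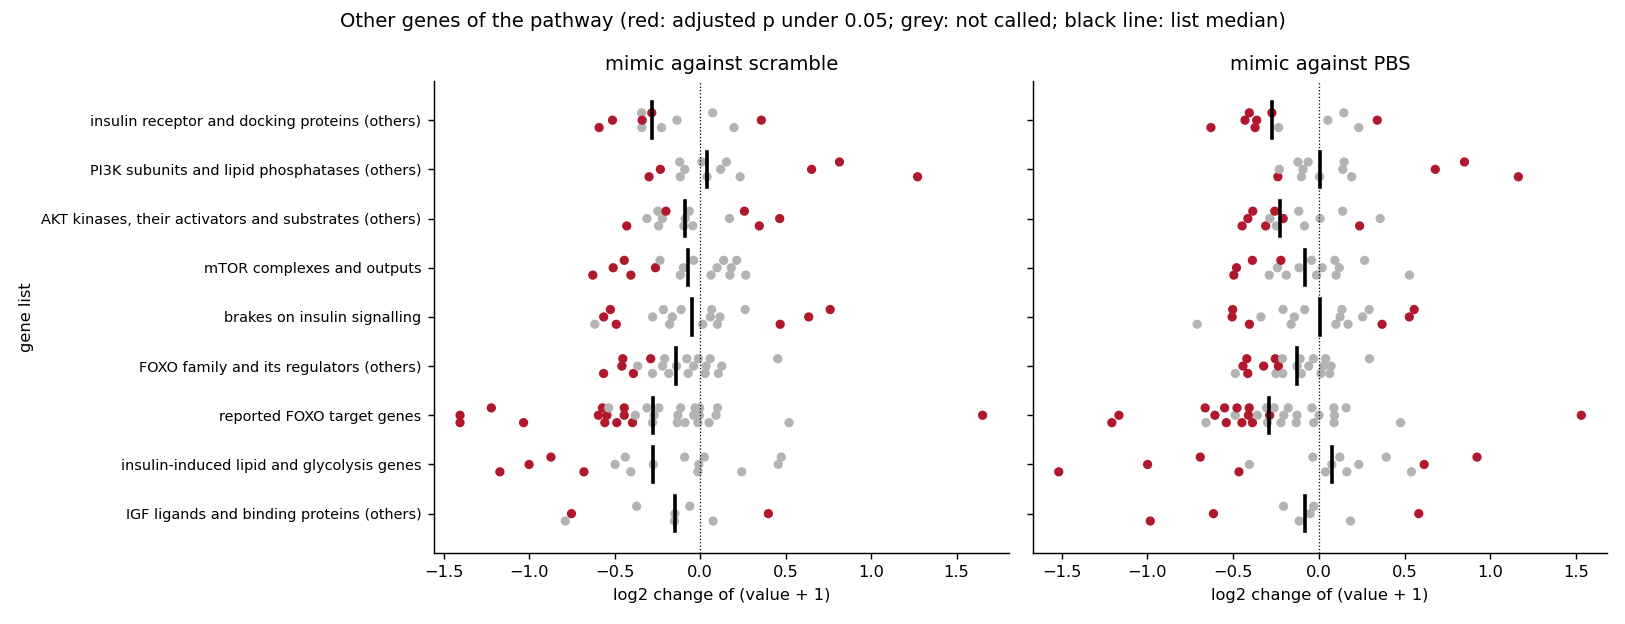
Log2 change of value + 1 of every measured gene of the 9 pathway lists in mimic against scramble and mimic against PBS, 1 point a gene, with called genes in red, others in grey and the list median as a black line. The median of the reported FOXO targets was -0.27 in mimic against scramble and that of the PI3K list 0.04.

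Of 11 other receptor and docking genes, 1 was called higher and 4 lower in mimic against scramble, with a median of -0.28, and 1 and 6 in mimic against PBS, with a median of -0.27. The adaptor gene Grb2, whose product links receptors to RAS, rose by 0.36 ± 0.07 (SE, adjusted p = 0.00435). Gab1, another docking protein, fell by 0.51 ± 0.11 (0.00415), the RAS activator Sos1 by 0.59 ± 0.14 (0.00880) and the phosphatase gene Ptpn11 by 0.34 ± 0.09 (0.0162). The receptor gene Igf1r stood at 1.47 ± 0.384 scaled CPM in mimic, 1.70 ± 0.232 in scramble and 1.37 ± 0.199 in PBS livers (SD) and was not called.

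Of 13 other genes of phosphoinositide 3-kinase and lipid phosphatases, 3 were called higher and 2 lower in mimic against scramble, and 3 and 1 in mimic against PBS, with medians of 0.04 and 0.00. The genes that rose were those of the catalytic subunits p110 delta and p110 gamma and of the phosphatase SHIP1, all known mainly from blood cells. Inpp5d (SHIP1) averaged 5.95 ± 1.21 scaled CPM in mimic livers, 1.86 ± 0.271 in scramble livers and 2.12 ± 0.684 in PBS livers (SD), a log2 change of 1.27 ± 0.17 against scramble (SE, adjusted p = 0.0003). Pik3cd rose by 0.81 ± 0.21 (0.0136) and Pik3cg by 0.65 ± 0.12 (0.00196). Pik3cg averaged 1.16 scaled CPM in mimic and 0.369 in scramble livers, levels at which the added 1 makes a log2 change smaller.

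Of 14 other AKT kinases, activators and substrates, 3 were called higher and 2 lower in mimic against scramble, and 1 and 6 in mimic against PBS, with medians of -0.09 and -0.23. Tbc1d1, which encodes an AKT substrate, rose by 0.35 ± 0.09 against scramble (SE, adjusted p = 0.0161). The AKT phosphatase gene Phlpp1 fell by 0.43 ± 0.12 (0.0167) and the glycogen synthase kinase gene Gsk3a by 0.20 ± 0.07 (0.0429). Of 16 genes of the mTOR complexes and their outputs, 0 were called higher and 5 lower against scramble, and 0 and 4 against PBS, with medians of -0.07 and -0.08. Deptor, an mTOR inhibitor, fell by 0.63 ± 0.14 (0.00724), the S6 kinase gene Rps6kb1 by 0.51 ± 0.12 (0.00963), Rictor, whose complex phosphorylates AKT, by 0.44 ± 0.09 (0.00476) and Mtor by 0.26 ± 0.08 (0.0289).

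Of 18 brakes on insulin signalling, 3 were called higher and 3 lower in each mimic comparison, the same 6 genes, with medians of -0.05 and 0.01. Prkcd, a protein kinase C gene, rose by 0.76 ± 0.10 (SE, adjusted p = 0.000411), Dok1 by 0.63 ± 0.14 (0.00523) and Ptpn1, the phosphatase that removes phosphate from the receptor, by 0.47 ± 0.10 (0.00467). Dok1 averaged 1.26 scaled CPM in mimic and 0.451 in scramble livers, where the added 1 likewise makes the change smaller. The receptor inhibitor gene Grb14 fell by 0.53 ± 0.12 (0.00589). Socs3, a cytokine-induced brake on IRS proteins, had 18.6 ± 4.35 scaled CPM in mimic, 20.5 ± 6.48 in scramble and 19.6 ± 3.40 in PBS livers (SD) and was not called.

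Of 21 other FOXO family members and regulators, 0 were called higher and 5 lower in mimic against scramble, and 0 and 6 in mimic against PBS, with medians of -0.14 and -0.13. Foxo4 fell by 0.45 ± 0.12 (SE, adjusted p = 0.0163), the FOXO deacetylase gene Sirt1 by 0.39 ± 0.11 (0.0223), the acetyltransferase gene Kat2b by 0.57 ± 0.11 (0.00362) and the FOXO deubiquitinase gene Usp7 by 0.46 ± 0.09 (0.00273). Of 32 reported FOXO targets, 1 was called higher and 12 lower in each mimic comparison, with medians of -0.27 and -0.29. Gadd45a, a stress-response gene, fell by 1.22 ± 0.15 (0.000235) and by 0.45 ± 0.14 against PBS (0.0292); its level was 4.22 to 4.87 scaled CPM in mimic, 9.74 to 12.8 in scramble and 5.23 to 9.20 in PBS libraries, so that scramble libraries lay above all PBS libraries. In mimic against scramble livers the catalase gene Cat fell by 0.60 ± 0.11 (0.00223) and the mitophagy genes Bnip3l by 0.56 ± 0.11 (0.00391) and Bnip3 by 0.55 ± 0.11 (0.00383). The single riser, Cdkn1a, an inhibitor of the cell cycle named here after its values were seen, rose by 1.65 ± 0.35 (0.00477). It is also induced by other factors, p53 among them.

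Also named after their values were seen were G6pc, Pck1 and Pdk4, targets that FOXO1 is known for in fasting liver. The gluconeogenic gene G6pc had 405 ± 69.6 scaled CPM in mimic livers, 599 ± 175 in scramble livers and 592 ± 86.6 in PBS livers (SD). Its log2 change was -0.54 ± 0.20 against scramble (SE, adjusted p = 0.0601, limma), which was not called, and it fell by 0.55 ± 0.19 against PBS (adjusted p = 0.0369). Pck1 had log2 changes of -0.31 ± 0.19 and -0.36 ± 0.17 (adjusted p = 0.216 and 0.122) and was called in neither. Pdk4, which restrains glucose oxidation, fell by 1.41 ± 0.44 against scramble (adjusted p = 0.0306) and by 1.21 ± 0.41 against PBS (adjusted p = 0.0366).

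Of 15 lipid and glycolysis genes that insulin induces in liver, 0 were called higher and 4 lower in mimic against scramble, and 2 and 4 in mimic against PBS, with medians of -0.27 and 0.08. The fatty acid elongase gene Elovl6 fell by 1.17 ± 0.17 against scramble (SE, adjusted p = 0.000549), the desaturase gene Scd1 by 1.0 ± 0.26 (0.0124), malic enzyme Me1 by 0.87 ± 0.23 (0.0131) and Mlxipl, which encodes the glucose-responsive factor ChREBP, by 0.68 ± 0.17 (0.00979). Against PBS, Insig1 rose by 0.92 ± 0.19 (0.00342) and the fatty acid synthase gene Fasn by 0.61 ± 0.20 (0.0340); both were named after their values were seen. Of 8 other genes of IGF ligands and binding proteins, 1 was called higher and 1 lower against scramble, and 1 and 2 against PBS, with medians of -0.15 and -0.08. Igfbp7 rose by 0.40 ± 0.14 (0.0451) and Igfbp3 fell by 0.75 ± 0.22 (0.0238), while Igf1 had 284 ± 53.3 scaled CPM in mimic, 312 ± 28.1 in scramble and 305 ± 40.7 in PBS livers (SD) and was not called.

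Some markers of cell types in liver, and acute phase genes, moved with the mimic group. In bulk tissue, fewer cells of a type and less RNA per cell cannot be told apart. The summed level of 12 hepatocyte markers ran from 25966 to 30462 scaled CPM in mimic libraries, 32172 to 37188 in scramble libraries and 31838 to 37319 in PBS libraries, and 0 of the 12 were called in mimic against scramble, while Fgb was called higher and Tat lower against PBS. Albumin (Alb) made up most of this difference, with 9929.7 to 13758 in mimic, 15399.7 to 20299.7 in scramble and 13896 to 21929 in PBS libraries. The other 11 markers summed to 14000.5 to 16704 in mimic, 15955 to 17578 in scramble and 15389 to 17941.5 in PBS libraries, ranges that overlapped. That sum includes Fgb, also on the acute phase list, which averaged 2040 in mimic, 1413 in scramble and 1333 in PBS livers. A sum without Fgb was not taken, so the overlap may rest in part on its higher level in mimic livers. The 13 acute phase genes summed to 20212 to 46711 in mimic, 4634 to 5257 in scramble and 4567 to 5570 in PBS libraries, with 10 called higher against scramble. The lowest mimic sum was thus well above the highest of the other libraries. The 4 of 7 neutrophil markers measured summed to 15.1 to 30.2 in mimic, 1.14 to 1.76 in scramble and 1.65 to 2.64 in PBS libraries, with all 4 called higher. The 10 stellate cell and fibroblast markers summed to 193 to 367 in mimic, 93.1 to 105 in scramble and 64.5 to 104 in PBS libraries, with 7 called higher and 1 lower. Here too the mimic libraries lay above all others, while the macrophage and endothelial sums overlapped between groups. The 14 Kupffer cell and macrophage markers summed to 130 to 222 in mimic, 85.6 to 160 in scramble and 88.1 to 176 in PBS libraries, with 5 called higher and 5, among them the resident Kupffer cell genes Clec4f and Timd4, called lower. The 10 endothelial markers summed to 114 to 163 in mimic, 150 to 172 in scramble and 139 to 183 in PBS libraries. Against scramble 2 were called in each direction, and against PBS 1 was called higher and 4 lower. Dpp4 had the highest level of the 10, averaging 51.0 in mimic, 56.4 in scramble and 56.0 in PBS livers. The 3 of 7 bile duct markers measured summed to 35.7 to 42.7 in mimic, 20.5 to 27.5 in scramble and 17.5 to 30.1 in PBS libraries. Against scramble 1 was called in each direction, and against PBS 2 were called higher and 1 lower. Most of the bile duct sum was Spp1, which averaged 37.5 in mimic, 18.4 in scramble and 15.0 in PBS livers. Sox9 averaged 1.04, 0.629 and 0.481 in the same order, and Krt23, which was lower in mimic livers, 0.209, 5.55 and 7.20. No listed lymphocyte marker was measured. No measured marker was at 0 in all libraries. The part of these shifts in the changes of the insulin signalling genes was not tested.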

How the data were processed

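RNA came from frozen liver; per the labels' protocols, a stranded mRNA kit was used, with paired-end reads of 48 bases. RNA integrity numbers of 8.4 to 9.2 are given for 7 of 11 libraries. Per the submitters' processing notes, the tools were edgeR 3.8.6, R 3.1.2, bedtools 2.17.0, SAMtools 0.1.19, Bowtie, FastQC 0.11.3 and bcl2fastq 1.8.4, and the build was mm10; their settings, and whether strand was counted, are not given in the sources used here.

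The deposited table holds a scaled signal per gene and library that the authors made from read counts, called scaled CPM here. Within a library 100% of values were whole multiples, to within 0.01 read, of the value of a single read, which gave the implied reads. Plain CPM had been assumed when the design was written, and the test was kept for the scaled signal.

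Log2(value + 1) was fitted with limma 3.58.1 (R 4.3.3), with 3 group means over 11 libraries, a mean-variance trend and adjustment over 13636 genes (Benjamini-Hochberg); the fit was tested on simulated data. Groups came from the sample titles. Replicate numbers were not taken to pair libraries. Ratios were compared with exact permutation tests, adjusted over 15. Alternatives covered pseudocount, filters, scaling, replicate block, libraries fitted, variance model, weights and left-out libraries. The fits without mimic replicates 1 and 4, and also without PBS replicate 2, leave out libraries that stood apart in earlier work on these data.

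The members, lists and alternatives were chosen with earlier results of these data known, and the lists were written from memory. Of the pathway symbols, 1 was matched through a synonym and 2 are on a pair of pathway lists. Tat and Apoc3 are both reported FOXO targets and hepatocyte markers, and Fgb is both a hepatocyte marker and an acute phase gene. All members are named, with up to 4 called genes of each list with the smallest p in mimic against scramble, and the 5 genes most like Irs2 and Igfbp1. Some genes that this rule names are not reported here. GENCODE M21 gave positions and 3′ UTRs (GRCm38, the assembly of mm10), and RefSeq the promoters and microRNAs.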

Additional observations from a re-analysis of the deposited data

Results flagged for a closer look

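The 10 genes and the 5 ratios were examined in the mimic and PBS groups, 30 sets of 4 libraries in all, for a library far from the others of its group. Pik3r1 stood out in mimic replicate 2, at 29.36 scaled CPM, where the other mimic libraries had 34.0 to 34.5. Its gap to the nearest library was 0.909 of the group's range, above Dixon's 95% critical value for 4 samples. Chance flags about 1 in 20 groups, so 1 flag is not unusual. The cause was not tested.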

How the results depend on the processing

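Of the 23 alternatives, division by library totals moved most: 1 member (Akt1, higher) was then called in mimic against scramble and 1 in mimic against PBS, against 5 and 7. Under it Insr (0.39), Pik3r1 (0.033) and Akt2 (0.45) changed sign against scramble, as did Insr (0.51), Pik3ca (0.034), Akt2 (0.51) and Foxo1 (0.13) against PBS; it shifts the median of all genes by 0.50 and 0.51. Leaving out 1 library gave 3 to 6 members called against scramble (3 without scramble replicate 1) and 4 to 7 against PBS (4 without mimic replicate 1, mimic replicate 3, PBS replicate 3 or PBS replicate 4). Without mimic replicates 1 and 4 the counts were 4 and 4: against scramble Irs1 (adjusted p = 0.114, limma) and Foxo1 (0.0961) lost their calls and Igfbp1 gained 1, and against PBS Irs1 (0.0644), Pik3r1 (0.115), Foxo1 (0.334) and Foxo3 (0.158) lost theirs and Akt1 was called higher. Irs2 and Pik3ca kept their calls in both mimic comparisons under every alternative run but library totals. Libraries were not taken to be paired by their numbers. Correlations of same-numbered libraries ran from -0.28 to 0.26, which with so few libraries cannot decide whether they are paired. With the replicate block 6 members were called in each mimic comparison. Igfbp1 then gained a call against scramble (-0.71, adjusted p = 0.0396, limma) and Foxo1 lost that against PBS (-0.46, adjusted p = 0.075).

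Changes near 0 changed sign when 1 library was left out. Their ranges were -0.0007 to 0.11 for Akt1 against scramble (0.17 without mimic replicates 1 and 4 and PBS replicate 2), and in scramble against PBS -0.33 to 0.084 for Irs1, -0.34 to 0.11 for Pik3r1, -0.060 to 0.088 for Pik3ca and -0.18 to 0.12 for Igfbp1. Library weights gave -0.020 for Pik3ca and 0.009 for Igfbp1 there. For log2 ratios the ranges were -0.26 to 0.27 (mimic against scramble), -0.017 to 0.26 (mimic against PBS) and -0.17 to 0.35 (scramble against PBS) for Pik3ca over Pik3r1, and in scramble against PBS -0.013 to 0.10 for Foxo3 over Foxo1 and -0.33 to 0.017 for Igfbp1 over Insr. Without mimic replicates 1 and 4, Irs2 over Irs1 against PBS was -0.093 and Pik3ca over Pik3r1 against scramble 0.10. The cause of these changes was not tested.

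Over all genes 2816 and 3273 were called in the mimic comparisons when only genes averaging 5 or more were fitted, which tests fewer genes, 2548 and 2894 without mimic replicates 1 and 4, and 2824 against scramble without scramble replicate 1, against 4363 and 5059. In scramble against PBS 5 genes were called with only those groups fitted and 1 without PBS replicate 1. Count tests and TMM factors on recovered reads were not run. With 3 or 4 libraries a group, the 95% intervals of members reached about ±0.5, so smaller differences could be missed.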
